A study of Mesocricetus auratus with 36 samples.

Results

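The genes described here are 10 genes of microglia and macrophages: Csf1r, Adgre1, Aif1, Cx3cr1, P2ry12, Tmem119, C1qa, C1qb, Ctss and Spp1. They were taken by gene name from the count tables of 36 hypothalamic libraries. All 10 were found among the 32340 genes listed, and all 10 were among the 17926 genes that passed the filter on low counts and were tested. The question put to them was whether they shift together between stages of the hibernation season or whether single animals carry the differences.

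The libraries came from 36 male golden hamsters (Mesocricetus auratus), 6 per group, each carrying an implanted body-temperature logger. Laser capture was used to cut out hypothalamic ependyma enriched for tanycytes, elongated glia whose cell bodies face the ventricle. Long photoperiod animals had 14 h of light at 22 °C and were 8 months old by the labels, although the protocol places some of them before the change of day length, which leaves their age uncertain. All other animals had 10 h of light at 8 °C. Pre-hibernation animals were taken at 4 weeks (4 months old), and late pre-hibernation animals at 8 to 12 weeks, before any torpor (6 months old). Other animals had gone through 3 cycles of torpor and arousal and were sampled 23 h into interbout euthermia, when the body is warm again between bouts, or 13 h into a torpor bout (both 6 months old). Refractory animals had ended hibernation by themselves; sampling fell at about 20 weeks, with no bout in the preceding 2 weeks or more (8 months old). Late pre-hibernation, interbout euthermia and torpor share light, temperature and age. Against long photoperiod, light and temperature changed together in every other group and, except in the refractory group, so did the labelled age, and these cannot be told apart.

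Microglia are the resident macrophages of the brain. They need signalling through the CSF1 receptor to survive, survey the tissue with motile processes, and carry receptors for the neuronal chemokine fractalkine and for nucleotides released by stressed cells. They are the main brain source of C1q, the protein that starts the classical complement cascade and tags synapses and debris for removal. When microglia or incoming macrophages take up lipid and debris, they lower several of the surface genes of the resting state and raise others, among them Spp1, which encodes the secreted protein osteopontin. Resting microglia carry little Spp1.

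The libraries held 5.16 to 28.54 M counts (M, 1e6; median 22.44 M). Ribosomal RNA genes held over 5% of the counts in 3 of them, refractory 4 (41.8%, 5.16 M counts), pre-hibernation 5 (9.28%, 12.74 M) and interbout euthermia 6 (7.21%, 14.11 M), while the other 33 were at or below 0.826%. Counts of changed genes are also given without these 3, termed rRNA-rich. All 10 tanycyte markers looked up were present, with a summed level whose group medians lay between 2484 and 3256 CPM (counts per 1e6 counts after TMM scaling). Neuron markers summed to group medians of 347.8 to 464.1 CPM, so the strip also held other cell types. In such bulk tissue, fewer cells of a type and less RNA per cell cannot be told apart.

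On golden hamster assembly BCM_Maur_2.0 each of the 10 genes lies on 1 contig and is annotated as protein coding. Csf1r spans 93676144 to 93707140 (minus strand, 22 exon blocks), Adgre1 97362402 to 97450365 (minus, 20), Cx3cr1 56842138 to 56856925 (minus, 2) and P2ry12 6541490 to 6582749 (plus, 3). Tmem119 spans 5193124 to 5208158 (minus, 3), Aif1 2931064 to 2932675 (minus, 6), Ctss 60770821 to 60803052 (minus, 8) and Spp1 78296575 to 78303450 (plus, 7). C1qa (6561413 to 6564703) and C1qb (6573543 to 6578674) lie on the plus strand of the same contig, with C1qc, which encodes the remaining C1q chain, between them at 6567426 to 6570053. Genes that overlap a member in the annotation share 0 exon bases with it, although counting did not use strand.

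All 10 genes had counts in every library. Per kilobase of exon, the median level over the 36 libraries was highest for C1qb (44.8 CPM per kb) and C1qa (40.04), followed by Ctss (17.99), Aif1 (12.7), Csf1r (11), P2ry12 (10.35) and Cx3cr1 (9.92). Tmem119 (2.46), Adgre1 (2.34) and Spp1 (1.39) were the lowest by this median. Spp1 also had the highest single value of the 10 genes, 818.2 CPM per kb in 1 library. The lowest raw counts of any member in any library were 3 for Spp1 and 5 for Tmem119, so the low values of these 2 genes are the least precise.

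Across the 6 groups, 3 of the 10 genes differed, against 14.6% of all genes tested: Spp1 (adjusted p = 3e-05), Adgre1 (adjusted p = 0.0042) and P2ry12 (adjusted p = 0.0319). The mean was highest in interbout euthermia for 8 of the 9 genes other than Spp1, and in the refractory group for Aif1. Without the rRNA-rich libraries 5 genes differed, with Csf1r (adjusted p = 0.00775) and Cx3cr1 (adjusted p = 0.0211) added, against 27.7% of all genes. The count was 6 when pre-hibernation 2 alone was left out (14.3% of all genes), 5 when interbout euthermia 6 alone was left out (16.9%), and 8 without the rRNA-rich libraries and pre-hibernation 2 (27.2%). By limma voom 7 of the 10 genes differed, against 43.4% of all genes. C1qa (adjusted p = 0.0807), C1qb (0.171), Aif1 (0.529), Ctss (0.628) and Tmem119 (0.841) did not pass. With 1 library left out at a time, P2ry12 missed the threshold in 10 of 36 fits and Adgre1 in 0 of 36.

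**Figure D1:**
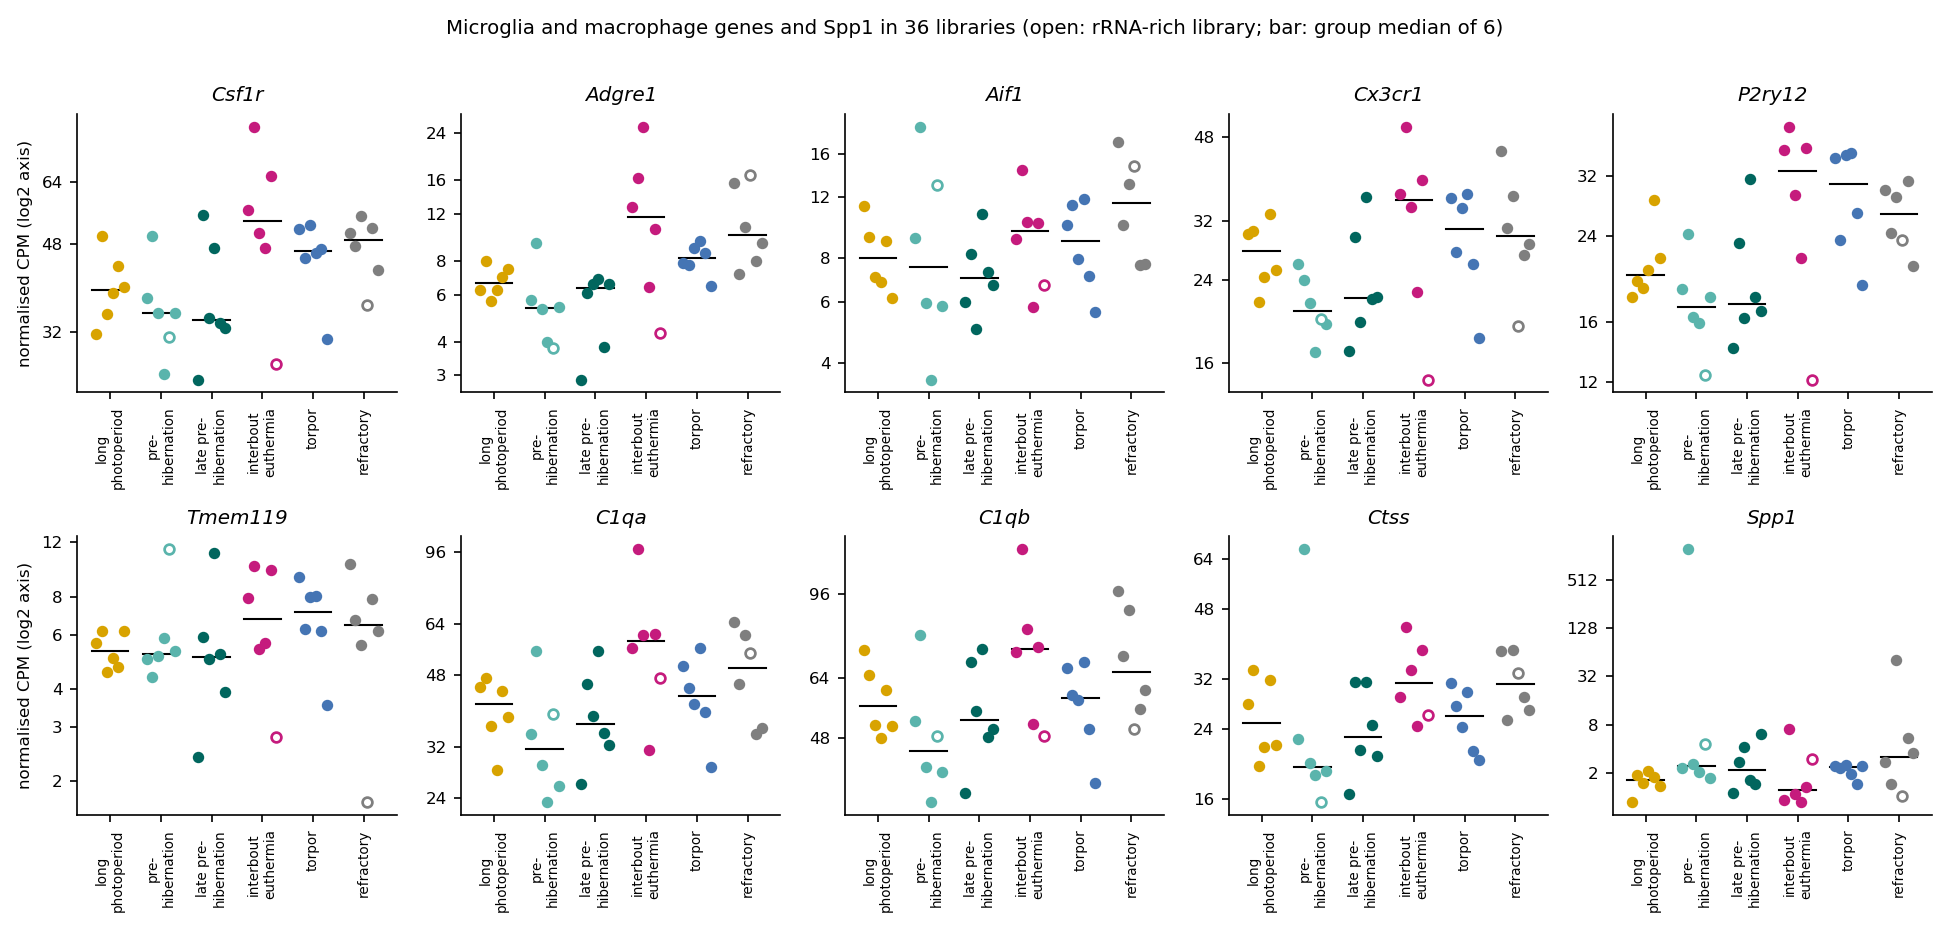
Normalised CPM (log2 axis) of the 10 genes in each of the 36 animals, 6 per group, with the group median as a bar and the 3 rRNA-rich libraries as open circles. The groups overlap in every panel for most pairs, interbout euthermia has the highest means for 8 of the 9 genes other than Spp1, and Spp1 stands at 1225 CPM in 1 pre-hibernation animal.

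Adgre1 encodes the adhesion receptor known in mice as F4/80, a surface marker of tissue macrophages. Its lowest, median and highest levels were 5.65, 6.62 and 8.04 CPM on long photoperiod, 3.78, 5.35 and 9.38 CPM in pre-hibernation, and 2.89, 6.32 and 6.88 CPM in late pre-hibernation. In interbout euthermia they were 4.32, 11.65 and 25.4 CPM, in torpor 6.48, 8.21 and 9.46 CPM, and in the refractory group 7.18, 10.03 and 16.8 CPM. The highest refractory value was that of the rRNA-rich refractory 4, where it rested on 49 counts. Of the 6 interbout animals, 4 lay above the highest late pre-hibernation animal and the same number above the highest long photoperiod animal, while the rRNA-rich animal 6 was the lowest of its group. All 6 refractory animals lay above all 6 late pre-hibernation animals, a pair of groups for which no test was made. This pair was seen on looking through every pair of groups for the 10 genes. The share of all genes without overlap between these groups is not given here. The interbout mean was 12.6 ± 7.60 CPM (SD, n = 6) against 5.47 ± 1.68 CPM in late pre-hibernation, and this range from highest to lowest group mean, 2.31-fold, was the widest of the 9 genes.

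Csf1r encodes the receptor for CSF1 and IL-34 on which microglia depend. It stood at 31.7, 38.9 and 49.9 CPM (lowest, median and highest) on long photoperiod, 26.3, 34.95 and 49.9 CPM in pre-hibernation and 25.7, 33.75 and 55.01 CPM in late pre-hibernation. The levels were 27.6, 53.4 and 82.6 CPM in interbout euthermia, 31.01, 46.5 and 52.4 CPM in torpor, and 36.3, 49 and 54.8 CPM in the refractory group. Animal 2 was the highest and the rRNA-rich animal 6 the lowest of the interbout group, and 3 interbout animals lay above every late pre-hibernation animal. The group means were 37.98 ± 10.9 CPM in late pre-hibernation and 55 ± 18.5 CPM in interbout euthermia (SD, n = 6).

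P2ry12 encodes a purinergic receptor by which microglial processes are drawn towards ADP. Levels (lowest, median, highest) were 17.9, 19.9 and 28.5 CPM on long photoperiod, 12.4, 17.15 and 24.2 CPM in pre-hibernation and 14.1, 17.4 and 31.5 CPM in late pre-hibernation. They were 12.1, 32.7 and 40.5 CPM in interbout euthermia, 19.0, 30.9 and 35.7 CPM in torpor, and 20.9, 26.7 and 31.2 CPM in the refractory group. Its torpor mean was 29.2 ± 7.11 CPM and its interbout mean 29.4 ± 10.7 CPM (SD, n = 6), with 4 interbout and 3 torpor animals above the highest long photoperiod animal. Torpor against long photoperiod gave a log2 fold change of 0.47 ± 0.21 (SE) that did not pass (adjusted p = 0.187), against 9.05% of all genes that did, although limma voom called it (11.7% of all genes higher).

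Cx3cr1 encodes the fractalkine receptor. It stood at 21.6, 27.6 and 33.1 CPM on long photoperiod, 16.9, 20.6 and 25.9 CPM in pre-hibernation and 16.99, 21.97 and 35.8 CPM in late pre-hibernation, again as lowest, median and highest. The values were 14.8, 35.3 and 50.6 CPM in interbout euthermia, 18.1, 30.8 and 36.5 CPM in torpor, and 19.2, 29.7 and 44.9 CPM in the refractory group. Tmem119, a membrane protein used in mice and humans to mark resident microglia, had group medians between 5.10 and 7.11 CPM. Its values ranged from 1.71 CPM in refractory 4 to 11.4 CPM in pre-hibernation 5, and both of these libraries are rRNA-rich. Aif1, whose product IBA1 binds actin and marks microglia in tissue sections, had group medians from 7.02 CPM in late pre-hibernation to 11.54 CPM in the refractory group, and a single highest value of 19.1 CPM in pre-hibernation 2.

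C1qa and C1qb encode chains of C1q. C1qa stood at 28.1, 40.9 and 47.15 CPM (lowest, median and highest) on long photoperiod, 23.5, 31.75 and 55.1 CPM in pre-hibernation, and 26.03, 36.5 and 54.9 CPM in late pre-hibernation. In interbout euthermia it was 31.6, 58.1 and 97.7 CPM, in torpor 28.7, 42.8 and 56.1 CPM, and in the refractory group 34.6, 50.04 and 64.6 CPM. Of the interbout animals, 5 of 6 lay above every long photoperiod animal for C1qa and 3 of 6 for C1qb. C1qb had medians of 55.8 CPM on long photoperiod, 45.1 CPM in pre-hibernation, 52.4 CPM in late pre-hibernation, 73.55 CPM in interbout euthermia, 58.25 CPM in torpor and 65.7 CPM in the refractory group, with the highest value, 118.9 CPM, in interbout animal 2. C1qc, which was not one of the 10 genes, had means of 50.2 ± 12.8 CPM in late pre-hibernation and 75.2 ± 22.4 CPM in interbout euthermia, and did not pass across the groups (adjusted p = 0.129).

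Ctss encodes cathepsin S, a protease of the lysosomes of antigen-presenting cells. Its group medians lay between 19.2 CPM in pre-hibernation and 31.3 CPM in interbout euthermia. The highest library was pre-hibernation 2 at 67.8 CPM, against 15.7 to 43.3 CPM in the other 35.

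What differed once torpor cycles had begun was asked by setting interbout euthermia against late pre-hibernation, which share age, day length and temperature. All 9 genes other than Spp1 stood higher in interbout euthermia, with a median log2 fold change of 0.44, against 0.01 over all genes. No gene passed in this comparison by edgeR with all libraries (0 of 17926, 0.0%), while 6.16% of all genes and 6 of the 9 had an unadjusted p under 0.05. DESeq2 called 33 genes (0.112% of all genes higher) and limma voom 550 (1.11% higher). The sizes were 1.21 ± 0.29 for Adgre1 (unadjusted p = 0.00015, adjusted p = 0.202), 0.61 ± 0.22 for C1qa, 0.56 ± 0.21 for P2ry12 and 0.54 ± 0.19 for Csf1r (log2 fold change ± SE). Cx3cr1 was at 0.44 ± 0.21, C1qb at 0.43 ± 0.20, Ctss at 0.42 ± 0.25, Aif1 at 0.36 ± 0.29 and Tmem119 at 0.32 ± 0.31.

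Without the rRNA-rich libraries, 153 genes passed in this comparison (0.855%, and 0.413% higher), and 3 of the 9 were among those that rose. Adgre1 rose by 1.39 ± 0.25 (adjusted p = 0.011), P2ry12 by 0.72 ± 0.18 (adjusted p = 0.0488) and Csf1r by 0.68 ± 0.17 (adjusted p = 0.0426), all on the log2 scale. With all libraries kept, DESeq2 called Adgre1 (adjusted p = 0.0316), and limma voom called Adgre1, P2ry12, Csf1r and Cx3cr1. Leaving out 1 library at a time kept the Adgre1 value between 0.90 (without interbout animal 3) and 1.39 (without interbout animal 6). Leaving out interbout animal 2, which was the highest of its group for 8 of the 9 genes, lowered Csf1r to 0.39, C1qa to 0.41 and C1qb to 0.25.

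Interbout euthermia also stood above long photoperiod for all 9 genes (median 0.37, against 0.01 over all genes), a comparison that shares its interbout libraries with the one before. The median was 0.23 without interbout animal 2, again with 9 of 9 higher. None of the 9 passed with all libraries, against 1.85% of all genes, and the nearest was Adgre1 (0.90 ± 0.28, adjusted p = 0.099). Without the rRNA-rich libraries 2.69% of all genes rose, and so did 3 of the 9, namely Adgre1 (1.07 ± 0.25, adjusted p = 0.0104), Csf1r (0.61 ± 0.17, adjusted p = 0.0302) and P2ry12 (0.64 ± 0.18, adjusted p = 0.0377). From interbout euthermia to torpor all 9 log2 fold changes were negative, with a median of -0.28, which was -0.13 with 4 of 9 positive when interbout animal 2 was left out. None passed there with all libraries, against 4.06% of all genes. Without the rRNA-rich libraries Adgre1 fell by 0.82 ± 0.25 (adjusted p = 0.0334), as 5.62% of all genes did.

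**Figure D2:**
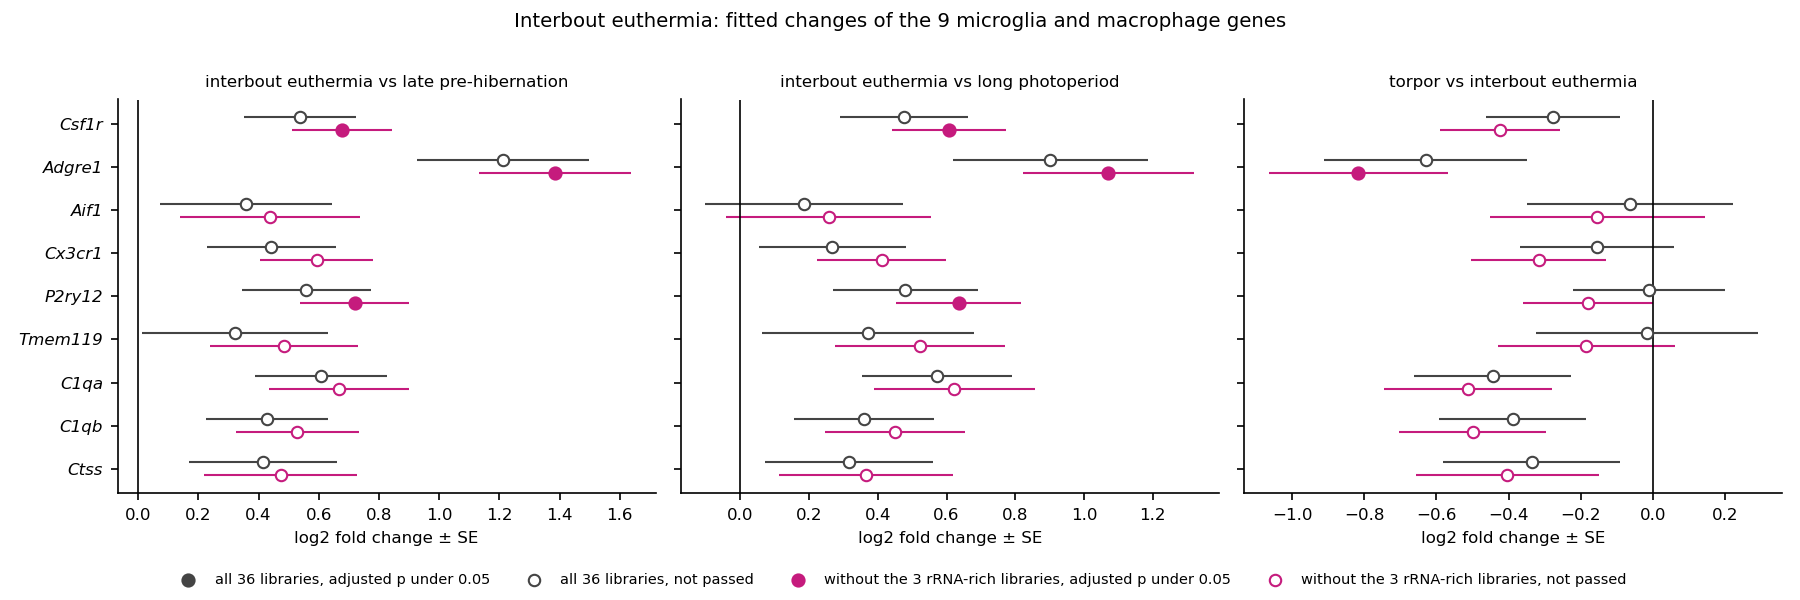
Log2 fold change ± SE of the 9 genes in 3 comparisons that involve interbout euthermia, from the fit of all 36 libraries (dark) and of the 33 without the rRNA-rich libraries (pink), with filled points for an adjusted p under 0.05. All 9 values are above 0 in the left and middle panels and below 0 on the right, and the filled points are Adgre1, Csf1r and P2ry12.

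In pre-hibernation against long photoperiod 6 of 9 genes stood lower (median -0.20), and none of the 9 passed, where 2.29% of all genes did. Without pre-hibernation 4, the lowest of its group for 5 of the 9, the median was -0.12 with 6 of 9 lower. Without pre-hibernation 2, the highest of its group for 7 of the 9, the median was -0.40 with 8 of 9 lower. Without the rRNA-rich libraries as well it was -0.40 with 9 of 9 lower, of which 3 had an unadjusted p under 0.05 (21.4% of all genes had) and none passed. In late pre-hibernation 8 of 9 stood lower (median -0.08, none passing, against 3.58% of all genes), and the median was -0.26 without late pre-hibernation 4 and -0.01 without late pre-hibernation 1. In torpor 7 of 9 stood higher (median 0.13, none passing), with medians of 0.04 without torpor 4 and 0.21 without torpor 6. In the refractory group 9 of 9 stood higher (median 0.30, against 0.03 over all genes), none passing against 0.329% of all genes, and 9 of 9 stayed higher in each of the 12 fits that left out 1 library. Adgre1 had the largest refractory value of the 9, 0.71 ± 0.29 (adjusted p = 0.259). From pre-hibernation to late pre-hibernation 5 of 9 stood higher (median 0.08; 0.0% of all genes passed), with medians of 0.23 without pre-hibernation 2 and -0.05 without late pre-hibernation 2. Without the rRNA-rich libraries and pre-hibernation 2 it was 0.22 with 9 of 9 higher and none passing. From interbout euthermia to the refractory group 8 of 9 stood lower (median -0.07), with none passing against 3.5% of all genes, and the median turned to 0.06 without interbout animal 2.

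The animals of a group did not move alike. For each animal the median log2 ratio of the 9 genes to the long photoperiod median was taken. It ran from -0.19 to 0.21 in the long photoperiod animals themselves, from -0.66 to 0.43 in pre-hibernation and from -0.60 to 0.40 in late pre-hibernation. In interbout euthermia it ran from -0.49 to 1.02 (median 0.45), in torpor from -0.51 to 0.46 (median 0.26), and in the refractory group from 0.11 to 0.70 (median 0.27). The refractory group was the one with all 6 animals above 0. Interbout animals 1, 2, 3 and 5 had all 9 genes above the long photoperiod median, while animals 4 and 6 together held the lowest interbout value of all 9 genes.

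Within groups the 9 genes tended to be high or low in the same animal. Interbout animal 2 was the highest of its group for 8 of the 9 genes, late pre-hibernation 4 for 7 and pre-hibernation 2 for 7. Torpor 6 was the lowest of its group for 9 of 9 genes, late pre-hibernation 1 for 8 and interbout animal 6 for 6. The summed level of the 9 genes spanned 190.2 to 474.2 CPM in interbout euthermia, 147.4 to 303.2 CPM in late pre-hibernation and 199.0 to 269.0 CPM on long photoperiod. Tissue markers differed between these animals as well: late pre-hibernation 4 had the lowest tanycyte sum of all libraries (1533 CPM) and the highest neuron sum (838.9 CPM), while interbout animal 2 stood at 3375 and 446.1 CPM. The part of these markers in the spread of the 9 genes was not tested.

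**Figure D3:**
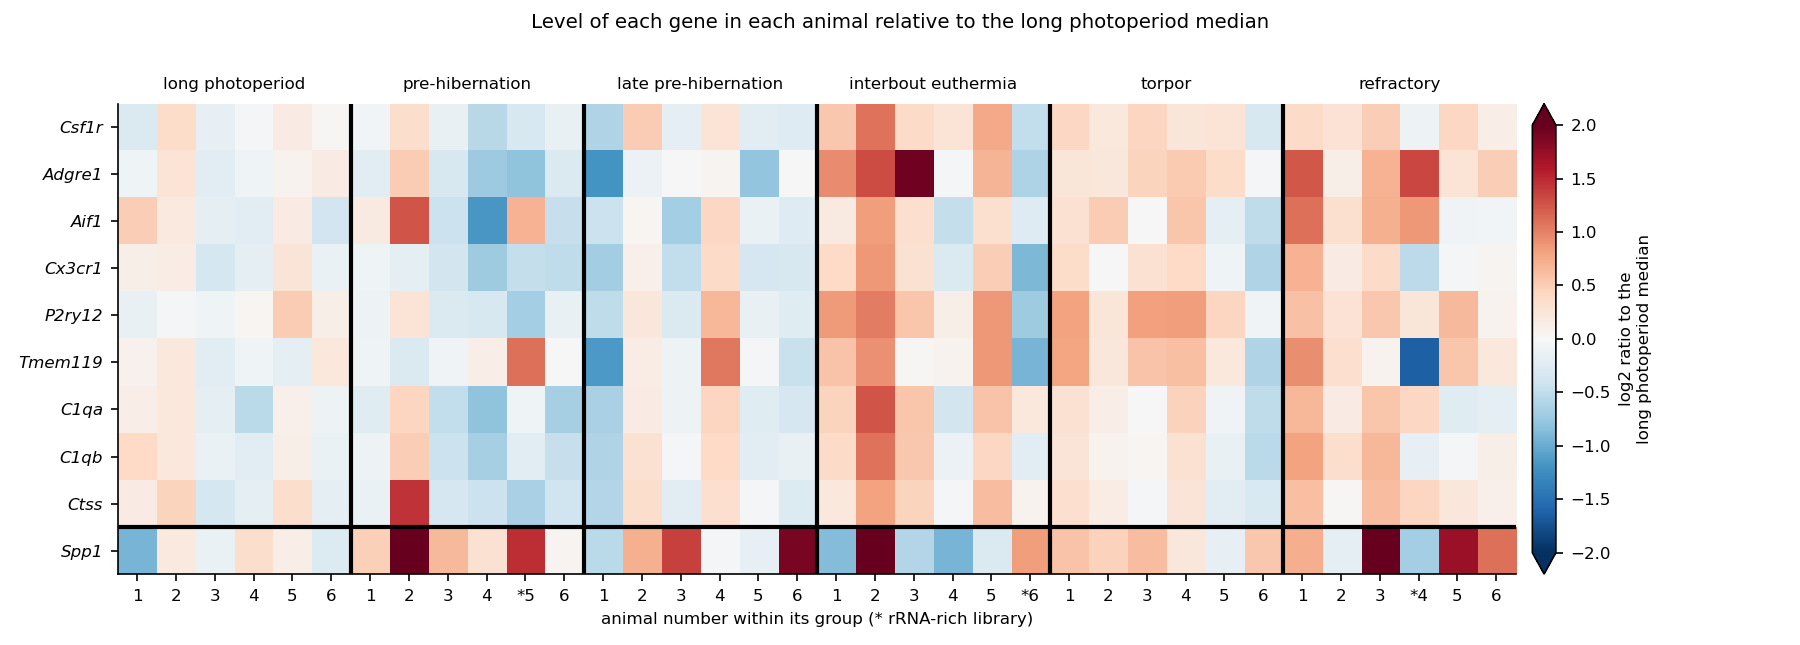
Log2 ratio of each gene in each animal to the median of the 6 long photoperiod animals (red higher, blue lower, colours end at 2), with Spp1 below the line and an asterisk at the rRNA-rich libraries. Whole columns share a colour, as in interbout animal 2 (median 1.02 over the 9 genes) and torpor animal 6, while the darkest Spp1 cells stand in single animals.

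Spp1 followed another pattern. On long photoperiod animals 1 to 6 stood at 0.867, 1.89, 1.50, 2.11, 1.80 and 1.37 CPM, and in pre-hibernation at 2.29, 1225, 2.60, 2.05, 4.59 and 1.72 CPM. Late pre-hibernation animals stood at 1.14, 2.70, 4.25, 1.62, 1.47 and 6.16 CPM, and interbout animals at 0.909, 6.97, 1.10, 0.869, 1.35 and 2.96 CPM. Pre-hibernation animal 2 thus lay 598-fold above the median of the other 35 libraries and held 98.9% of its group's summed Spp1. In torpor the values were 2.45, 2.28, 2.54, 1.93, 1.47 and 2.41 CPM, and in the refractory group 2.73, 1.44, 51.7, 1.03, 5.49 and 3.53 CPM. Refractory animal 3 was the second-highest library and held 78.4% of its group's sum, and the remaining 34 libraries all lay below 7 CPM.

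The fit gave Spp1 a log2 fold change of 7.00 ± 1.46 in pre-hibernation against long photoperiod (adjusted p = 0.00477), the one call of a member in any comparison of 2 groups with all libraries, where 2.29% of all genes passed and 1.61% rose. Without pre-hibernation 2 the value was 0.69 (adjusted p = 0.766). limma voom, which lowers the weight of deviating libraries, gave 1.65 ± 1.14 (adjusted p = 0.378), and DESeq2 gave no adjusted p for Spp1. The fit of these 2 groups alone gave 7.00 ± 2.11 (adjusted p = 0.0999). Across the 6 groups Spp1 passed without pre-hibernation 2 (adjusted p = 0.00546) but not by voom (adjusted p = 0.601). The former fit still held refractory 3 at 51.7 CPM, and no fit left out both animals. When the rRNA-rich libraries were left out together with pre-hibernation 2, a choice made after seeing the data, Spp1 rose in the refractory group against long photoperiod by 3.02 ± 0.69 (adjusted p = 0.0328), as 0.094% of all genes did, with refractory 3 still in the fit.

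In pre-hibernation animal 2 the other members did not follow Spp1 evenly. Ctss (67.8 CPM) and Aif1 (19.1 CPM) were at their highest of all 36 libraries, 3.55-fold and 2.55-fold above the mean of the other 5 pre-hibernation animals. C1qb (78.7 CPM) ranked 5, C1qa (55.1) 8, Adgre1 (9.38) 9 and Csf1r (49.9) 12 of the 36. P2ry12 (24.2 CPM) ranked 15, Cx3cr1 (24.0) 23 and Tmem119 (4.38) 31, and Tmem119 stood at 0.669 of the mean of the other 5 animals. P2ry12, Cx3cr1 and Tmem119 are widely used as markers of resident microglia.

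The 10 genes that, by the rule used, stood furthest above every other library in the same animal were Cst7, Ccl5, Arg1, Ctsk, Ccl3, Clec4e, Slc11a1, Gpnmb, Tm4sf19 and Fcgr4. Ctsk, a collagen-degrading cathepsin, stood at 217.2 CPM against at most 25.5 CPM elsewhere. Gpnmb, a glycoprotein of lipid-laden macrophages, stood at 44.3 CPM against at most 8.29 CPM, and Cst7, an inhibitor of cathepsins, at 19.8 CPM against at most 1.50 CPM. The chemokine genes Ccl3 (15.4 CPM) and Ccl5 (13.8 CPM) had medians of 0.0901 and 0.0859 CPM in the other 35 libraries. Cd68, a lysosomal protein of phagocytes, stood at 57.4 CPM against 2.53 to 12.8 CPM, and Lgals3, which encodes galectin-3, at 90.7 CPM against at most 27.1 CPM. All these values describe 1 library and were chosen for being high in it.

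Of 18 genes of activated microglia with counts, 7 were at their highest in pre-hibernation animal 2 (Gpnmb, Cst7, Lgals3, Igf1, Cd74, Ccl3 and Ch25h). The activated list summed to 3390 CPM there, against 2008 to 5730 CPM elsewhere (median 2691), and Apoe, Lpl and Cd9 ranked 22, 20 and 18. The share of all genes at their highest in this animal is not given here. Of 17 other genes on the homeostatic microglia list, 5 were at their highest there (Trem2, Cd68, Fcer1g, Laptm5 and Spi1). That list summed to 1024 CPM, against at most 1051 CPM elsewhere. None of 8 genes of border macrophages was, although their summed level, 173.1 CPM, was above that of every other library (at most 167.5 CPM). Mrc1, a mannose receptor of border macrophages, stood at 17.4 CPM against a median of 0.872 CPM elsewhere, and Lyve1 at 12.53 CPM against a median of 14.3 CPM. Lymphocyte and neutrophil markers summed to 2.04 CPM against a median of 2.49 CPM. Erythrocyte markers summed to 3.23 CPM against a median of 6.65 CPM, and pituitary markers to 84.2 CPM against a median of 87.6 CPM.

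In refractory animal 3 several of the same genes ranked second of 36, behind pre-hibernation 2: Cd68 (12.8 CPM), Lgals3 (27.1), Gpnmb (8.29), Ctsk (25.5), Ccl3 (1.80) and Cst7 (1.50). Clec4e, Slc11a1 and Tm4sf19 also ranked second in this animal. Others did not follow in this animal: Arg1 (0.773 CPM) ranked 4, Fcgr4 (1.5) 5, Igf1 (1.93) 6 and Ccl5 (0.0859) 19. Its C1qb (88.8 CPM) and Ctss (37.9 CPM) ranked 3, and its Tmem119 (5.58 CPM) ranked 21. Its pituitary markers (5 of 6 found) summed to 1721 CPM, in a refractory group that spanned 69.9 to 1721 CPM (median 261.6), and its erythrocyte markers (3 of 5 found) to 28.2 CPM in a range of 6.65 to 36.7 CPM (median 15.35). Their part in its Spp1 level was not tested. Several other myeloid genes were instead high in the rRNA-rich refractory 4, among them Itgam (24.0 CPM), Ptprc (12.3), Mrc1 (18.5), Itgax (9.25) and Clec7a (4.80), where Spp1 was at 1.03 CPM and lymphocyte and neutrophil markers summed to 41.1 CPM.

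**Figure D4:**
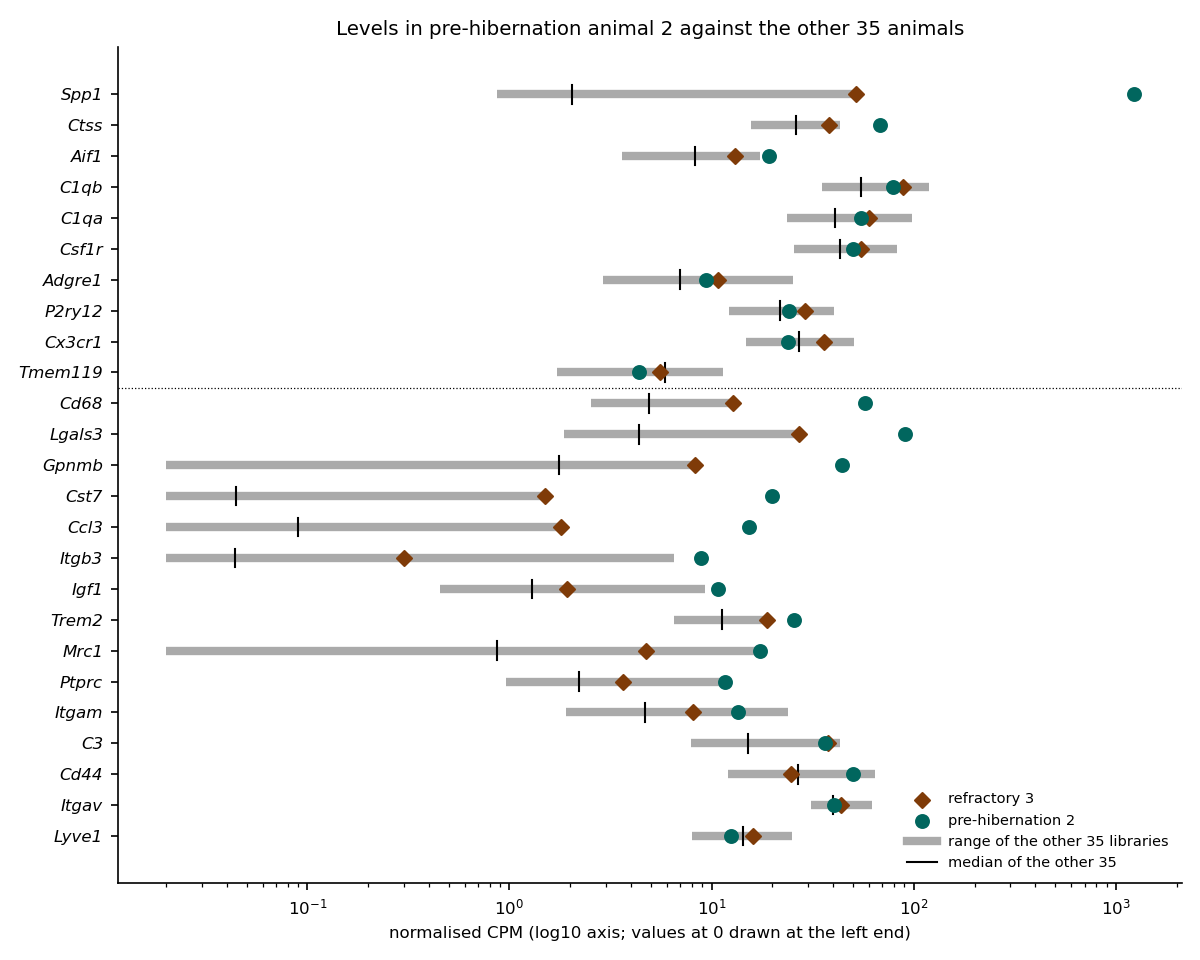
Normalised CPM (log10 axis) of the 10 genes, above the dotted line, and other genes named in the text in pre-hibernation 2 (circles) and refractory 3 (diamonds), with the range (grey bar) and median (black tick) of the 35 libraries other than pre-hibernation 2. Spp1, Ctss, Aif1, Cd68, Lgals3, Gpnmb and Cst7 lie outside the grey bars in pre-hibernation 2, while P2ry12, Cx3cr1 and Tmem119 lie inside.

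From animal to animal within groups, the log2 level of Spp1 was correlated with that of each of the other 9 genes over 36 libraries after subtracting group means. Of the 9 correlations, 4 passed a two-sided permutation test within groups after adjustment over the 9, namely Ctss (r = 0.68), C1qb (r = 0.49), C1qa (r = 0.44) and Csf1r (r = 0.38), each at an adjusted p of 0.0463. The rank correlations of these genes were 0.41, 0.29, 0.25 and 0.36, and none of the 9 passed (lowest adjusted p = 0.144). Aif1 (r = 0.44, rho = 0.15, adjusted p = 0.166), Adgre1 (0.27, 0.22 and 0.195), P2ry12 (0.23, 0.20 and 0.195), Cx3cr1 (0.18, 0.15 and 0.24) and Tmem119 (-0.01, 0.05 and 0.973) did not pass. Without pre-hibernation 2, r was 0.22 for Ctss, 0.32 for C1qb, 0.25 for C1qa and 0.25 for Csf1r, with every adjusted p at or above 0.535, so the relation rests on that animal. Without the 2 libraries farthest from the median of the gene on the x axis, r was 0.26 for Ctss, 0.49 for C1qb, 0.36 for C1qa and 0.31 for Csf1r.

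**Figure D5:**
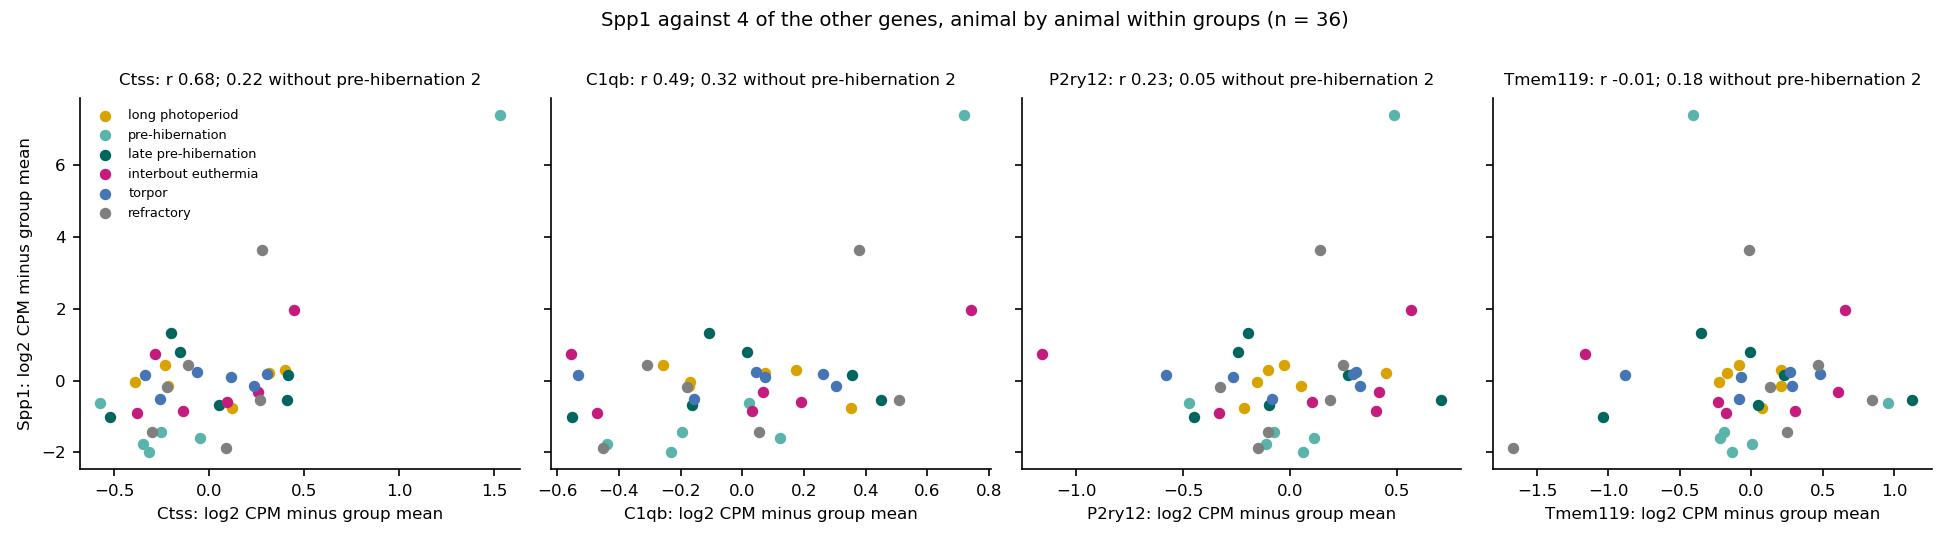
Log2 CPM of Spp1 minus its group mean (y axis) against the same for Ctss, C1qb, P2ry12 and Tmem119 (x axes), 1 point per animal (n = 36). Pre-hibernation 2 is the topmost point of each panel, and r is 0.68 with it and 0.22 without it for Ctss, and 0.49 and 0.32 for C1qb.

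The genes most like each pattern also differed. Among 12515 named genes of sufficient level, those whose within-group deviations were most like Spp1 over the 36 libraries included Cd68 (r = 0.85), Ctsk (0.82), Lgals3 (0.81), Lyz (0.79), Arpc1b (0.77), Cd74 (0.77) and Snx20 (0.72). Without pre-hibernation 2 the values were lower, 0.56 for Cd68, 0.33 for Ctsk, 0.54 for Lgals3 and 0.64 for Cd74. Most like the mean of the other 9 genes were C1qc (r = 0.90), Pld4 (0.90), Cd53 (0.85), Selplg (0.84), Pcolce2 (0.83), Il18 (0.83), Cd37 (0.82) and Plek (0.81). For C1qc (0.89) and Pld4 (0.90) the value without pre-hibernation 2 was nearly the same. The 2 sets of 8 genes shared no name, and all points come from the same 36 libraries.

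Of 17 other genes of homeostatic microglia tested, 5 differed among the groups: Mef2c, Slc2a5, Sall1, Selplg and Gpr34. Counts over the groups in this and the following lists compare with 14.6% of all genes with all libraries and 27.7% without the rRNA-rich ones. Mef2c, a transcription factor that neurons and endothelial cells also use, went from 135.5 ± 26.9 CPM on long photoperiod to 270.4 ± 31.9 CPM in pre-hibernation (log2 fold change 1.00, adjusted p = 0.00163) and was 0.80 higher in interbout euthermia than on long photoperiod (adjusted p = 0.0189), a call missed in 4 of 12 fits that left out 1 library. Slc2a5, a fructose transporter, rose by 1.37 in pre-hibernation against long photoperiod (adjusted p = 0.00567). Mef2c and Slc2a5 also passed against long photoperiod in late pre-hibernation and in torpor, each call missed in 0 of 12 fits that left out 1 library. In interbout euthermia against late pre-hibernation none of the 17 passed, with a median of 0.37. From interbout euthermia to torpor Sall1, a transcription factor of microglial identity, fell by 0.54 (adjusted p = 0.0336), a call missed in 7 of 12 such fits. Selplg (adjusted p = 0.0337), a ligand of selectins, had its highest mean in interbout euthermia (42.7 ± 15.05 CPM). In fits that left out 1 library each, Selplg missed the threshold in 10 of 36 and Gpr34 in 25 of 36.

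Among the other complement genes, C1r, C1s and C3ar1 differed among the groups. C1r, a protease of the C1 complex, rose in interbout euthermia against long photoperiod by 1.49 ± 0.29 (adjusted p = 0.00361) and in pre-hibernation by 1.48 ± 0.29 (adjusted p = 0.00261). It also passed against long photoperiod in late pre-hibernation and in torpor, each call missed in 0 of 12 fits that left out 1 library. C1s, its partner protease, rose by 0.90 ± 0.25 in interbout euthermia (adjusted p = 0.0497) and missed the threshold in 10 of 12 fits that left out 1 library. C3 stood at 15.3 ± 4.15 CPM on long photoperiod and 26.8 ± 10.98 CPM in interbout euthermia and did not pass (adjusted p = 0.167). C3ar1, its anaphylatoxin receptor, had its highest mean in interbout euthermia (5.69 ± 1.78 CPM) and missed the threshold without interbout animal 2 or 6.

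None of 7 genes of border macrophages differed among the groups with all libraries, and 5 did without the rRNA-rich ones (Stab1, Mrc1, Cd14, F13a1 and Lyve1). In that fit Stab1, a scavenger receptor, rose by 0.78 ± 0.17 from late pre-hibernation to interbout euthermia (adjusted p = 0.0238), and Cd14, a coreceptor for bacterial lipopolysaccharide, by 0.70 ± 0.18 (adjusted p = 0.0498). Lyve1 averaged 13.2 ± 5.25 CPM in late pre-hibernation and 17.6 ± 4.52 CPM in interbout euthermia. Markers of other cells were summed in the same 2 groups, late pre-hibernation first. The 10 of 10 tanycyte markers found spanned 1533 to 3178 CPM (median 2766) and 2785 to 3807 CPM (median 3256), and the 8 of 8 neuron markers 423.1 to 838.9 CPM and 278.3 to 570.6 CPM. The 7 of 7 endothelial markers spanned 79.3 to 122.6 CPM and 63.85 to 150.4 CPM, and the 3 of 5 erythrocyte markers found 2.60 to 11.49 CPM and 2.99 to 38.6 CPM. None of the markers found was at 0 in all libraries. Their part in the higher level of the 9 genes in interbout euthermia was not tested.

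Of 14 genes of activated microglia tested, 3 differed among the groups: Lpl, Axl and Ccl3. Lpl, a lipoprotein lipase that tanycytes also carry, fell from 129.9 ± 29.2 CPM on long photoperiod to 53.8 ± 13.8 CPM in pre-hibernation (adjusted p = 0.0083) and 41.5 ± 14.99 CPM in interbout euthermia (adjusted p = 0.00103). Lpl also passed against long photoperiod in late pre-hibernation, in torpor and in the refractory group, each call missed in 0 of 12 fits that left out 1 library. Axl, a receptor for dying cells, rose by 0.88 in pre-hibernation (adjusted p = 0.02) and by 0.87 in interbout euthermia (adjusted p = 0.0288) against long photoperiod. These calls were missed in 4 of 12 fits (among them that without pre-hibernation 2) and 5 of 12 fits that left out 1 library. Axl also passed against long photoperiod in late pre-hibernation (missed in 0 of 12 such fits) and in torpor (missed in 5 of 12). Ccl3 passed in pre-hibernation with a log2 fold change of 6.00, which was 0.35 without pre-hibernation 2 (adjusted p = 0.959). Gpnmb (adjusted p = 0.0702) and Lgals3 (adjusted p = 0.0544) did not pass among the groups with all libraries and did without the rRNA-rich ones (0.0114 and 0.0344). The latter fit still held pre-hibernation 2, with Gpnmb at 44.3 CPM and Lgals3 at 90.7 CPM (at most 8.29 and 27.1 CPM elsewhere). Itgax, Cst7 and Clec7a were too low to be tested. Apoe averaged 593.6 to 1303 CPM, Cd9 736.1 to 1063 CPM and Cd63 9.86 to 11.96 CPM over the 6 groups, with no call with all libraries. Igf1 averaged 1.08 to 3.08 CPM, Trem2 of the homeostatic list 10.68 to 13.8 CPM and Cd68 of that list 3.86 to 13.2 CPM, also with no call.

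Of 8 ligand and receptor genes tested, Csf1 (adjusted p = 0.0216) and Tgfbr1 (adjusted p = 0.0396) differed among the groups. Csf1, the ligand of Csf1r, had its highest mean in pre-hibernation (37.8 ± 6.57 CPM) and its lowest in torpor (25.5 ± 2.31 CPM). The highest Csf1 levels of all libraries were those of the rRNA-rich pre-hibernation 5 (43.7 CPM) and of pre-hibernation 2 (43.4 CPM). In fits that left out 1 library, Csf1 missed the threshold in 3 of 36 (without pre-hibernation 1, 2 or 5) and Tgfbr1 in 7 of 36. Il34, the other ligand, averaged 2.29 to 4.15 CPM and did not pass, nor did Cx3cl1, the fractalkine that Cx3cr1 binds, at 53.8 to 68.2 CPM. Tgfb1 stayed below 0.2 CPM in every library and was not tested. Of 8 genes of osteopontin receptors and related proteins, 1 differed among the groups: Cd44, a receptor for osteopontin and hyaluronan, with 19.6 ± 4.11 CPM on long photoperiod, 35.1 ± 8.89 CPM in pre-hibernation and 17.75 ± 5.69 CPM in the refractory group (adjusted p = 0.00806). Itgav, an integrin chain that also binds osteopontin, averaged 40.1 to 42.3 CPM in every group, while its partner Itgb3 stood at 8.88 CPM in pre-hibernation 2 against a median of 0.0438 CPM elsewhere.

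Of 7 genes of inflammation tested, Nfkbia, an inhibitor of NF-kappa-B, differed among the groups (adjusted p = 0.0066), and of 8 interferon-response genes Isg15, Irf7 and Mx1 did (Mx1 not without pre-hibernation 1, adjusted p = 0.0524). In pre-hibernation against long photoperiod Isg15 rose by 1.59 ± 0.38 (adjusted p = 0.0144), and without pre-hibernation 2 it missed the threshold at 1.45 (adjusted p = 0.0514), 1 of 3 such misses among 12 fits that left out 1 library. Irf7 rose by 1.20 ± 0.31 (adjusted p = 0.0241), which was 0.57 without pre-hibernation 2 (adjusted p = 0.287), 1 of 4 such misses. Of 6 genes of dividing cells, Mki67 differed among the groups (adjusted p = 0.0107). Its level in refractory 4 was 37.7 CPM, and without that library it missed the threshold (adjusted p = 0.0581).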

How the data were processed

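The deposited tables, 1 for each library, hold raw fragment counts per gene. Per the file headers, the authors made these counts with featureCounts 2.0.1, paired-end and without strand, on assembly BCM_Maur 2.0, while the aligner's version was not given in the sources used here. RNA integrity numbers lay between 7 and 9 (labels' protocols). No pair of libraries held identical values, and 0 sample columns were left unused. The labels name no batch.

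The filter was filterByExpr and the scaling TMM, followed by 1 robust quasi-likelihood fit (edgeR 4.0.16, R 4.3.3) that took in the 36 libraries. P values were adjusted by Benjamini and Hochberg's method over every gene tested, with a threshold of 0.05, and stem from this fit where no other tool is named. Levels are CPM with TMM factors, and log2 CPM have a prior count of 2. Correlations within groups used 100000 permutations within groups. The alternatives were RLE factors, DESeq2 1.42.0, limma voom (limma 3.58.1), other filters, a replicate block, subsets of libraries and leaving out each library. The fit was tested on simulated data.

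The members, gene lists and naming rule were chosen with earlier results of these data known. Named genes are the 10 members, a fixed set of related genes, up to 4 called genes per list, the 8 genes most like each pattern and the 10 that stood furthest above the other libraries in the animal with the highest Spp1. Tyrobp, Siglech and Cd163 were not analysed here. A few genes that the naming rule picked are not reported here. Figures were drawn with Python 3.11.15 and matplotlib 3.10.9.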

Additional observations from a re-analysis of the deposited data

Results flagged for a closer look

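In groups of 6 animals, 5 of the 60 pairs of gene and group had a library far from the other 5 by Dixon's gap test on log2 levels, and chance gives about 3. Spp1 stood at 1225 CPM in pre-hibernation 2, with the gap to the next animal taking 0.854 of the group's range, and Ctss stood at 67.8 CPM in the same animal (0.75). Tmem119 stood at 11.4 CPM in pre-hibernation 5 (0.697) and at 1.71 CPM in refractory 4 (0.657), both of them rRNA-rich libraries. Csf1r stood at 31.01 CPM in torpor 6 (0.708), the animal that was the lowest of its group for all 9 genes other than Spp1. The Spp1 level of refractory 3, 51.7 CPM, was not far enough from its group's range by this test.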

How the results depend on the processing

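Of the 10 genes, the number that differed among the 6 groups was 3, and it was 7 by limma voom (43.4% of all genes), 5 without the rRNA-rich libraries, 8 without these and pre-hibernation 2, and 2 to 6 when 1 library was left out. For pre-hibernation against long photoperiod the 1 call (Spp1) became 0 by voom, without the rRNA-rich libraries and pre-hibernation 2, against long photoperiod 1 to 3 or 4 to 6 alone, and in a fit of those 2 groups, and it was 0 to 1 when 1 library was left out. DESeq2 also counted 0 there but gave Spp1 no adjusted p. Interbout euthermia against late pre-hibernation went from 0 to 1 by DESeq2, 4 by voom, 3 without the rRNA-rich libraries and 3 without these and pre-hibernation 2 (0 to 1 leaving out 1 library), and against long photoperiod from 0 to 3 by voom and in both of those subsets (0 to 1). Torpor gave 1 against long photoperiod by voom and 1 against interbout euthermia in both subsets, and the refractory group 1 against each of long photoperiod and interbout euthermia without the rRNA-rich libraries and pre-hibernation 2; leaving out 1 library kept these and the other 2 comparisons at 0. The cause of these moves was not tested, except that subsets hold fewer libraries. Over all genes, calls in interbout euthermia against late pre-hibernation ranged from 0 to 550, and among the 6 groups from 1915 to 7787. In interbout euthermia against long photoperiod voom called 1543 of 17926 genes, and the subsets 847 of 17903 and 791 of 18078. Without the rRNA-rich libraries and pre-hibernation 2, the refractory group gave 101 of 18078 against long photoperiod and 512 against interbout euthermia.

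With the replicate number as a block, 1 of the 10 genes (10.7% of all genes) differed among the groups (Adgre1), Spp1 had an adjusted p of 0.177 and P2ry12 of 0.0562. Spp1 in pre-hibernation against long photoperiod was 4.04 (0 calls). Samples share only a number: of 90 same-numbered pairs, 23 had deviations correlated above 0.1 (mean r -0.003, against 0.005 for other pairs).

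The correlations of Spp1 with Csf1r, C1qa, C1qb and Ctss were 0.37, 0.43, 0.48 and 0.67 with RLE factors (adjusted p = 0.0509, so that none passed). Without the library with the highest Spp1 they were 0.25, 0.25, 0.32 and 0.22, and Tmem119 turned from -0.01 to 0.18, neither value passing. Without the rRNA-rich libraries Adgre1 reached r = 0.44 (adjusted p = 0.0465). Depth limited Spp1 and Tmem119 most, at 3 and 5 counts in their lowest libraries.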
